A study of Mus musculus with 18 samples.

Results

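The MYC and MAX network was followed as the transcripts of 8 genes, Myc, Mycn, Max, Mxd1, Mxd3, Mxd4, Mxi1 and Mnt, which were taken by name from a table of 20207 genes. All 8 had at least 1 read in each of the 18 libraries and so were among the 12731 genes tested. MYC and MYCN are transcription factors that bind DNA as pairs with MAX, most often at the letters CACGTG, and raise the transcription of genes for growth, ribosome building and metabolism. The MXD proteins, MXI1 and MNT pair with MAX as well and hold the same sites in a repressed state through SIN3 corepressors, so the make-up of the network sets how much MAX goes to each side. MYC mRNA and protein are short-lived in fibroblasts, and Myc is a classic early gene of growth factor stimulation.

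The cells were NIH3T3, a mouse fibroblast line, carrying a stable destabilizing domain fused to GFP (DD-sfGFP) and sorted for high expression of it. The ligand S1, which keeps this domain folded, was left on the cells in every group, the control included. There were 3 libraries each of unperturbed control cells (0 min), of cells after 45 and 135 min of heat stress (HS), and of cells after 45, 135 and 405 min of tunicamycin, a blocker of N-glycosylation that sets off the unfolded protein response of the endoplasmic reticulum (erUPR). The labels number the 3 libraries of a group but do not say that they came from separate cultures, so p-values measure the spread between these libraries, which may be technical. All results are from 1 sorted population of 1 cell line.

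Each library held between 33415592 and 66478268 reads on genes. Levels of a single gene are given as CPM, library-scaled read counts adjusted by TMM over all 18 libraries, and levels of different genes are set side by side only as the authors' RPKM, which divides by gene length. The 8 fibroblast markers summed to between 21000 and 77900 CPM, while epithelial markers summed to at most 1.11 CPM and endothelial markers to at most 0.569 CPM. Immune markers summed to between 5.47 and 8.75 CPM, nearly all of it the lysosomal gene Cd68, with the leukocyte gene Ptprc at most at 0.0297 CPM. The heat shock genes Hsph1 and Hspa1b were above every control library in all 6 HS libraries.

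ER stress genes did not follow the time labels of the tunicamycin libraries in order. The ER chaperone gene Hspa5 was at 656, 683 and 735 CPM in control and at 955, 928 and 923 CPM in the libraries labelled tunicamycin 45 min. It was at 491, 421 and 333 CPM in those labelled 135 min, below every control library, and at 9290, 8800 and 8940 CPM at 405 min. Ddit3, which encodes the stress transcription factor CHOP, lay between 416 and 689 CPM at 45 min, between 161 and 287 CPM at 135 min and between 2160 and 2860 CPM at 405 min, against 69.4 to 74.0 CPM in control. Both genes were therefore higher under the earlier label than under the later one. Whether these 2 labels name the times as the cells were treated was not tested, so the order of the 45 and 135 min tunicamycin values below is an order of labels.

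Libraries also differed in how their counts depended on the GC content of the genes. This GC tilt is the median log2 deviation of genes at or above 55.3% GC, the upper quartile, minus that of genes at or below 45.8%, the lower quartile. It was 0.0624 in control replicate 1 and -0.691 and -0.694 in control replicates 2 and 3. It was 0.988 and 1.25 in HS 45 min replicates 1 and 2 against -0.432 in replicate 3, 1.32 in HS 135 min replicate 2, and 0.704 in tunicamycin 135 min replicate 1. The 405 min libraries lay between -0.351 and -0.0633. Leaving out the 7 libraries with a tilt above 0, a choice made after seeing the data, keeps 1 library in each HS group, which is then assumed to vary like the other groups. Some values from that fit, not all, are given beside those of Myc, Mycn, Mxd3 and Mnt.

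Promoters of 7 of the 8 members were found in the RefSeq table for GRCm38.p6, each read from 250 bases before to 50 bases after a transcription start. The member without a window there was Myc, so the Myc promoter was not searched for any site. The gene positions of the deposited files are in mm9, and the windows were matched by symbol. Those of 3 members held the MYC and MAX site CACGTG, which reads the same on both strands and occurs in 7.15% of the 32851 windows in the table. They are shown because each encodes a protein that binds, or pairs to bind, this site, with the site in capitals:

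Max, chr12:76962244-76962498, minus strand, site from base -3: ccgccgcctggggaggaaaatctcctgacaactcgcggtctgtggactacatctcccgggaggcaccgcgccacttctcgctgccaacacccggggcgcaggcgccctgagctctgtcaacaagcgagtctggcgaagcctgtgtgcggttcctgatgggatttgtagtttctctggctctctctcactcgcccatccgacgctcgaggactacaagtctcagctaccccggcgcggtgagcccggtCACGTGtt
Mxd4, chr5:34187711-34187960, minus strand, site from base -219: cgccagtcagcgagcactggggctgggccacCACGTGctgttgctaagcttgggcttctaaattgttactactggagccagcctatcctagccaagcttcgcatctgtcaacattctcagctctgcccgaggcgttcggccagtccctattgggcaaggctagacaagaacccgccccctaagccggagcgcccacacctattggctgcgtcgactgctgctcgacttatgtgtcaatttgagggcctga
Mnt, chr11:74830674-74830923, plus strand, site from base -123: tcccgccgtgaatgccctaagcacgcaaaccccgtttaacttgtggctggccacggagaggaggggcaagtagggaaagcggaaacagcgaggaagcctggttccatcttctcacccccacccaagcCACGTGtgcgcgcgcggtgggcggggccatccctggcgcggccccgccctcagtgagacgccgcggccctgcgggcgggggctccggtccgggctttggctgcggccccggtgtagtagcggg

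The Mycn window held no CACGTG. It held the E2F letters TTTGGCGC at bases -183 and -168 and, overlapping the first, GCGCGAAA from base -179, the reverse complement of the other E2F form. E2F factors drive genes of S phase entry, and TTTGGCGC or TTTCGCGC on either strand occurs in 0.813% of the windows. It is shown because Mycn moved most of all members, with the matches in capitals:

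Mycn, chr12:12941837-12942086, minus strand: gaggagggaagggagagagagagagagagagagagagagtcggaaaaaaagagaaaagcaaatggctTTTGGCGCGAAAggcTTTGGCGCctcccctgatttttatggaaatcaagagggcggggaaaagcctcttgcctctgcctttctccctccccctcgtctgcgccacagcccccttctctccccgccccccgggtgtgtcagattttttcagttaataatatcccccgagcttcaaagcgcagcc

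None of the member windows found, which leave out Myc, held the heat shock core GAANNTTC or TTCNNGAA (15.1% of windows), the ATF4 and CHOP letters TGATGNAA (3.97%) or the ER stress response element (0.119%). A match describes these letters only, and their absence says nothing of the factor.

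Across the comparisons with control, which share the same 3 control libraries, Myc was the member whose higher level passed the test most often and Mycn the one with the widest range. At 45 min of HS, 0 of the 8 members passed (edgeR's quasi-likelihood test, Benjamini-Hochberg adjusted p under 0.05), where 0.00% of all genes did. There, 2 members and 2481 genes (19.5%) had an unadjusted p under 0.05, and DESeq2's Wald test called 1 member. The share of all genes that DESeq2 called is not given here for any comparison. Without HS 45 min replicate 3, 5 members were called higher (Myc, Mycn, Mxd1, Mxd3 and Mxd4), against 45.4% of genes called in either direction. At 135 min of HS, the test called 2 members higher and 0 lower, against 7.39% of all genes (4.75% higher and 2.64% lower). At 45 min of tunicamycin 1 member was higher and 1 lower, against 6.17% of genes (4.01% higher and 2.17% lower). At 135 min 0 were called, against 0.134% of genes, while 1 member and 18.6% of genes had an unadjusted p under 0.05 and DESeq2 called 1 member. At 405 min 4 members were higher and 1 lower, against 46.8% of genes (23.3% higher and 23.5% lower), so that 5 of 8 members is a share near the background. The median log2 fold change of the 8 members was 0.64 at 45 min and 0.41 at 135 min of HS, and 0.04, 0.20 and 0.72 at the 3 tunicamycin times, while the median of all tested genes lay between -0.03 and 0.00 in these comparisons. In such bulk samples, fewer cells with a transcript and less of it per cell cannot be told apart.

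**Figure D1:**
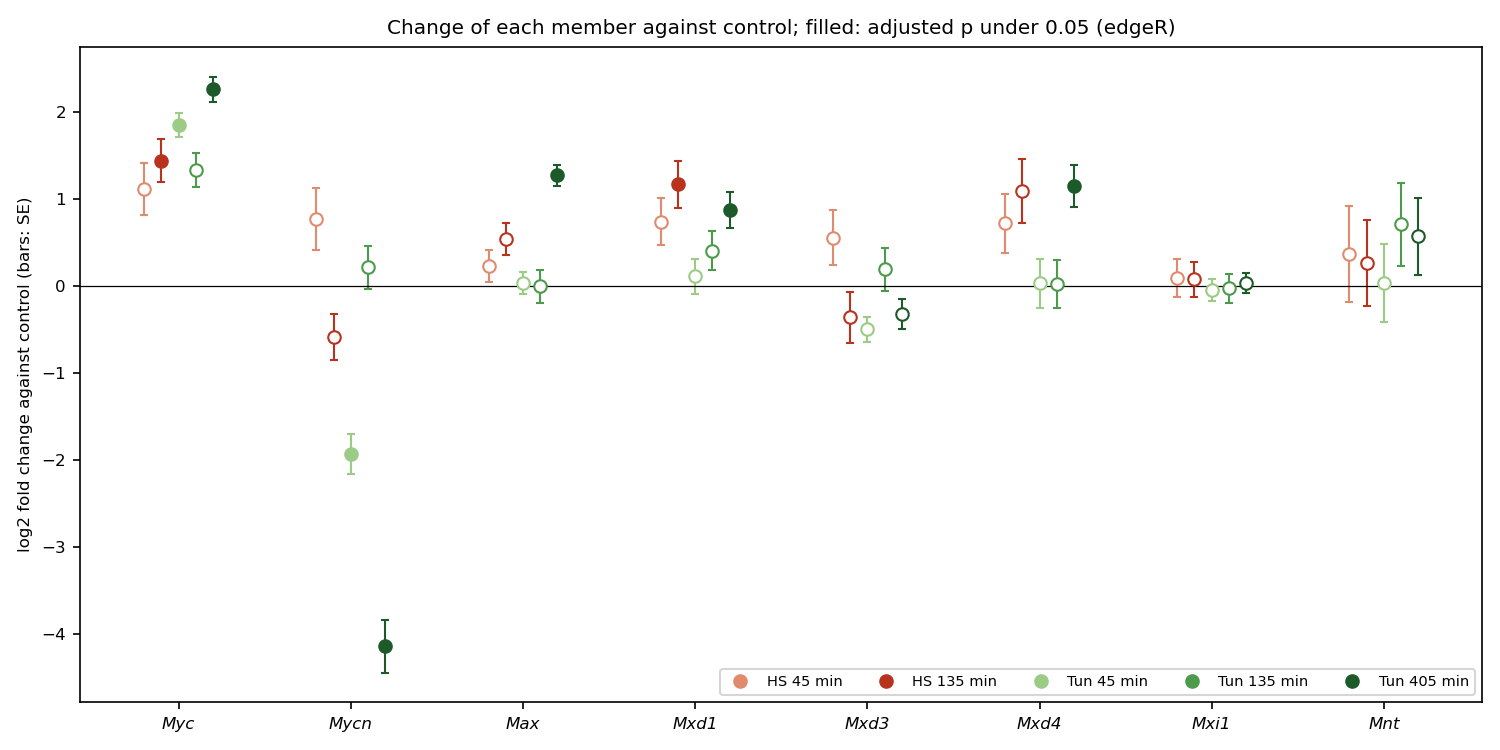
Log2 fold change of each member against control (vertical axis; bars are standard errors) in the 5 stress groups; filled points have an adjusted p under 0.05. Myc was above 0 in all 5 groups, from 1.12 to 2.26, Mycn spanned from 0.77 to -4.14, and Mxi1 lay within 0.10 of 0.

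Myc, on mm9 chromosome 15 from 61816896 to 61821916, encodes the growth-promoting factor after which the network is named. In control its level was 166, 205 and 183 CPM in the 3 libraries. HS libraries held 432, 519 and 248 CPM at 45 min and 376, 641 and 485 CPM at 135 min. Tunicamycin libraries held 653.5, 598 and 720.4 CPM at 45 min, 570.5, 414 and 400.2 CPM at 135 min, and 792, 904 and 916 CPM at 405 min. Every stressed library was above every control library, and HS 45 min replicate 3 was the lowest of the stressed ones. In the order of group means, control was lowest and the 405 min group highest, each apart from its neighbour, while HS 45 min, tunicamycin 135 min, HS 135 min and tunicamycin 45 min overlapped from one to the next.

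Myc rose 4.80-fold at 405 min of tunicamycin (log2 fold change 2.26 ± 0.14, SE, adjusted p = 2.3e-05, edgeR) and 3.60-fold at 45 min (1.85 ± 0.14, adjusted p = 0.00122, edgeR). Both calls held in every alternative tried. At 135 min of HS it rose 2.71-fold (1.44 ± 0.25, adjusted p = 0.021, edgeR). That call was lost with the replicate number as a block (1.41, adjusted p = 0.143, edgeR) and without control replicate 2 (1.52, adjusted p = 0.111), control replicate 3 (1.43, adjusted p = 0.124) or HS 135 min replicate 3 (1.46, adjusted p = 0.12). Values that did not pass were 1.12 ± 0.30 at 45 min of HS (adjusted p = 0.227, edgeR) and, under tunicamycin at 135 min, 1.34 ± 0.20 (adjusted p = 0.0649, edgeR). At 45 min of HS it passed with all groups in 1 fit (1.12, adjusted p = 0.017, edgeR) and by DESeq2 (1.13, adjusted p = 0.0408). In 7 of the 9 alternatives other than leaving out 1 library it did not pass there. Without HS 45 min replicate 3, whose GC tilt was opposite to that of replicates 1 and 2, Myc was called at 45 min of HS (1.37, adjusted p = 0.00197, edgeR). Without the tilted libraries, which keeps replicate 3 alone, it was 0.40 there (adjusted p = 0.074, edgeR). Without tunicamycin 135 min replicate 1 Myc was called at that time too (1.17, adjusted p = 0.041, edgeR). It also passed there with no gene filter (1.33, adjusted p = 0.0447), all groups in 1 fit (1.32, adjusted p = 0.0136) or the GC correction (1.23, adjusted p = 0.0272), by edgeR. DESeq2 called it too (1.33, adjusted p = 7.59e-06), and without the tilted libraries it was 1.12. In 4 of the 9 alternatives other than leaving out 1 library it did not pass there.

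Between stressed groups, Myc was 1.86-fold higher at 405 than at 135 min of tunicamycin (log2 0.90 ± 0.18, adjusted p = 0.00549, edgeR). The tunicamycin libraries labelled 135 min against those labelled 45 min gave -0.51 ± 0.17 (adjusted p = 0.236, edgeR). This passed with the GC correction (-0.60, adjusted p = 0.0494, edgeR) and without tunicamycin 135 min replicate 1 (-0.67, adjusted p = 0.0491, edgeR). It was -0.62 without the tilted libraries. In 7 of the 9 alternatives other than leaving out 1 library it did not pass. Direct comparison of HS with tunicamycin gave -0.72 ± 0.28 at 45 min (adjusted p = 0.196, edgeR) and 0.09 ± 0.26 at 135 min (adjusted p = 0.884, edgeR), neither of which passed the test. Of the 6 fits at 45 min that leave out 1 library, 1 passed, that without HS 45 min replicate 3 (-0.47, adjusted p = 0.0315, edgeR). Without the tilted libraries, with 1 HS library, the value at 45 min was -1.34.

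**Figure D2:**
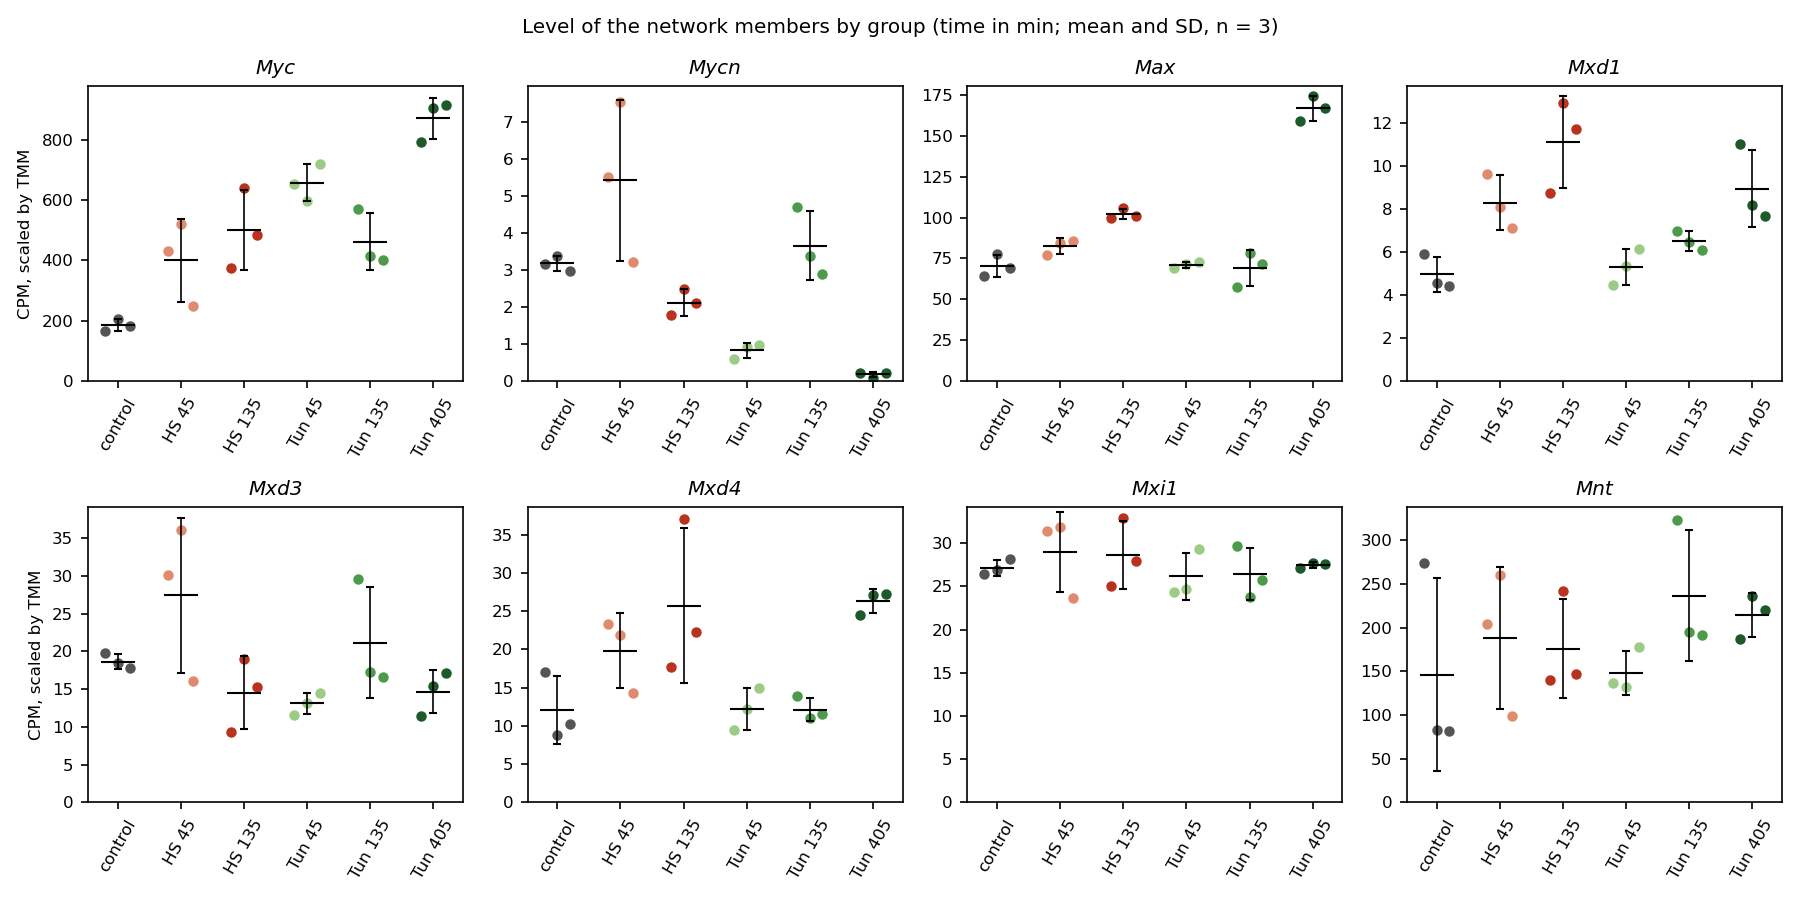
Level of each member in every library (points, CPM scaled by TMM, own scale per panel), with group mean and SD (n = 3). Myc was above control in all 15 stressed libraries, Mycn was between 0.0882 and 0.221 CPM at 405 min of tunicamycin, and 1 of 3 control libraries of Mnt stood at 273 CPM.

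Mycn, on chromosome 12 from 12942899 to 12948642, encodes the MYC paralogue best known from embryonic and neural tissue, and was the scarcest member beside Mxd1 in control cells. Control libraries held 3.16, 3.39 and 2.97 CPM. HS libraries held 5.51, 7.55 and 3.21 CPM at 45 min and 1.77, 2.48 and 2.11 CPM at 135 min. Under tunicamycin the level was 0.594, 0.913 and 0.974 CPM at 45 min, 4.69, 3.37 and 2.90 CPM at 135 min, and 0.221, 0.0882 and 0.216 CPM at 405 min. The 405 min values rest on 14, 5 and 12 reads, above the floor of 3 counts but open to counting error. Libraries of the 405 min, 45 min and control groups did not overlap, with the 45 min group between the others.

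Mycn fell 17.6-fold at 405 min of tunicamycin (log2 fold change -4.14 ± 0.30, SE, adjusted p = 4.2e-05, edgeR), and no alternative lost this call. At 45 min of tunicamycin it was 3.82-fold lower (-1.93 ± 0.23, adjusted p = 0.00686, edgeR), a call lost with the replicate number as a block (-1.95, adjusted p = 0.0827, edgeR) and without tunicamycin 45 min replicate 2 (-2.02, adjusted p = 0.0529, edgeR). The libraries labelled 135 min overlapped control (0.21 ± 0.25 on the log2 scale, adjusted p = 0.682, edgeR). Set against each other, the 135 min libraries were 4.43-fold above the 45 min ones (2.15 ± 0.28, adjusted p = 0.046, edgeR), the only member called there, where 0.291% of genes were (0.118% higher and 0.173% lower). That call was lost with the block (2.14, adjusted p = 0.652, edgeR) and with the block and the GC correction together (2.03, adjusted p = 0.184, edgeR). It was also lost in 5 of the 6 fits without 1 library, being kept without tunicamycin 135 min replicate 1. From 135 to 405 min Mycn was 20.8-fold lower (-4.38 ± 0.36, adjusted p = 0.000133, edgeR). Between these times 4 members were called, 3 higher and 1 lower, against 43.7% of genes (21.4% higher and 22.4% lower).

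Under HS neither time passed the test for Mycn against control, with values of 0.77 ± 0.36 at 45 min (adjusted p = 0.266, edgeR) and -0.58 ± 0.26 at 135 min (adjusted p = 0.181, edgeR). With the GC correction it passed at 135 min (-0.80, adjusted p = 0.0307, edgeR). Without the tilted libraries, with 1 HS library at that time, it was also -0.80. At 45 min it passed without HS 45 min replicate 3 (1.04, adjusted p = 0.012, edgeR), and without the tilted libraries, on replicate 3 alone, it was 0.05 (adjusted p = 0.927, edgeR). The change from 45 to 135 min was tested between the 2 stresses in 1 fit, where 3.16% of all genes were called. For Mycn this difference, HS minus tunicamycin, was -3.54 ± 0.48 on the log2 scale (adjusted p = 0.00483, edgeR), the only member to pass in this fit. This test was added after the data were seen. It rests on the tunicamycin libraries whose labels the ER stress genes did not follow in order. Mxd3 had the next largest difference (-1.65 ± 0.49, adjusted p = 0.0983, edgeR), and Myc had 0.79 ± 0.38 (adjusted p = 0.32, edgeR). In other fits by edgeR the difference of Mxd3 passed: with all groups in 1 fit (-1.61, adjusted p = 0.0428), with the GC correction (-1.29, adjusted p = 0.00632), with that and the replicate block (-1.28, adjusted p = 0.0257), without HS 45 min replicate 3 (-1.91, adjusted p = 0.0304) and without the tilted libraries (-1.24, adjusted p = 0.0138). That of Myc passed without the tilted libraries (1.22, adjusted p = 0.00174, edgeR), where each HS time has 1 library. Comparison of HS with tunicamycin at 45 min called 0 members (0.204% of genes). There, 5 members and 24.0% of genes had an unadjusted p under 0.05, and DESeq2 called 2 members. Mycn had the largest value of the members, 2.71 ± 0.40 higher under HS (adjusted p = 0.066, edgeR). The 135 min comparison also called 0 members (2.12% of genes), with 4 members and 20.0% of genes at an unadjusted p under 0.05 and 2 members called by DESeq2. HS 135 against 45 min called 0 members (0.00% of genes), where 2 members and 11.6% of genes had an unadjusted p under 0.05 and DESeq2 called 1 member.

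Max, the shared partner, lies on chromosome 12 from 78038256 to 78063235 and stayed near its control level until the last tunicamycin time. Its level was 64.1, 77.5 and 68.9 CPM in control, 69.2, 71.8 and 72.8 CPM at 45 min and 57.2, 78.6 and 71.5 CPM at 135 min of tunicamycin. At 405 min it was 159.1, 175 and 167 CPM, with no overlap with any other group. HS libraries held 76.9, 84.8 and 85.7 CPM at 45 min and 99.6, 106 and 101 CPM at 135 min. Those at 135 min of HS were all above control, in a narrow band.

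At 405 min Max rose 2.42-fold against control (log2 fold change 1.27 ± 0.12, SE, adjusted p = 0.000135, edgeR) and 2.38-fold against 135 min (1.25 ± 0.15, adjusted p = 0.000628, edgeR), calls that every alternative kept. The value at 135 min of HS, 0.54 ± 0.18, did not pass (adjusted p = 0.0994, edgeR). It passed with all 6 groups in 1 fit (0.54, adjusted p = 0.00677) and with a GC correction (0.55, adjusted p = 0.0315), both by edgeR. The Max promoter shown above holds a CACGTG across its start site.

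The antagonists of MYC differed in their calls. By the edgeR test with all libraries, Mxd1 and Mxd4 were called at 405 min of tunicamycin, Mxd1 also at 135 min of HS, and Mxd3, Mxi1 and Mnt in no comparison. Mxd1 (chromosome 6, 86597039 to 86619153) encodes the founding MXD protein, known from differentiating cells. Its level was 5.90, 4.55 and 4.39 CPM in control, 9.64, 8.10 and 7.09 CPM at 45 min and 8.74, 12.9 and 11.7 CPM at 135 min of HS. It was 4.44, 5.32 and 6.14 CPM at 45 min, 6.97, 6.45 and 6.07 CPM at 135 min and 11.0, 8.16 and 7.65 CPM at 405 min of tunicamycin. All libraries of both HS groups and of the 135 and 405 min tunicamycin groups lay above all control libraries.

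Mxd1 rose 2.25-fold at 135 min of HS (1.17 ± 0.27 on the log2 scale, SE, adjusted p = 0.042, edgeR) and 1.83-fold under tunicamycin at 405 min (0.87 ± 0.20, adjusted p = 0.00833, edgeR). The call at 405 min held throughout. That under HS was lost with the replicate number as a block, without (1.16, adjusted p = 0.176, edgeR) or with the GC correction (1.15, adjusted p = 0.0705, edgeR). It was also lost without control replicate 1 (1.32, adjusted p = 0.0527), control replicate 2 (1.11, adjusted p = 0.196), control replicate 3 (1.09, adjusted p = 0.202) or HS 135 min replicate 3 (1.13, adjusted p = 0.188). At 45 min of HS Mxd1 did not pass (0.74 ± 0.27, adjusted p = 0.235, edgeR). There it was called with all groups in 1 fit (0.74, adjusted p = 0.0382, edgeR) and without HS 45 min replicate 3 (0.84, adjusted p = 0.0245, edgeR).

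Mxd4 (chromosome 5, 34519229 to 34530359), a further SIN3-recruiting partner of MAX, was at 17.1, 8.84 and 10.2 CPM in control. At 405 min of tunicamycin it was at 24.5, 27.2 and 27.3 CPM, above all control libraries, after 9.49, 12.2 and 14.97 CPM at 45 min and 13.9, 11.0 and 11.5 CPM at 135 min. HS libraries held 23.3, 21.9 and 14.3 CPM at 45 min and 17.7, 37.1 and 22.3 CPM at 135 min. The rise at 405 min was 2.22-fold against control (log2 1.15 ± 0.24, SE, adjusted p = 0.00578, edgeR) and 2.14-fold against 135 min (1.10 ± 0.15, adjusted p = 0.00116, edgeR). At 135 min of HS the value was 1.09 ± 0.37 (adjusted p = 0.103, edgeR). It passed under a GC correction (0.82, adjusted p = 0.0446, edgeR), with all groups in 1 fit (1.09, adjusted p = 0.0153, edgeR) and with DESeq2 (1.09, adjusted p = 0.0359). Without the tilted libraries, with 1 HS library at that time, it was 0.94. For HS against tunicamycin at 135 min Mxd4 did not pass (1.06 ± 0.31, adjusted p = 0.123, edgeR), but DESeq2 called it (1.07, adjusted p = 0.0293). There, edgeR called it with all groups in 1 fit (1.08, adjusted p = 0.0242) and with the GC correction (0.93, adjusted p = 0.0206).

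Mxd3 (chromosome 13, 55426529 to 55431091), an MXD family member linked to S phase, ranged from 17.8 to 19.7 CPM in control, 16.1 to 36.0 CPM at 45 min of HS and 9.33 to 19.0 CPM at 135 min of HS. Under tunicamycin it ranged from 11.6 to 14.5, from 16.7 to 29.6 and from 11.5 to 17.1 CPM at the 3 times. Its lowest adjusted p against control was at 45 min of tunicamycin, where all 3 libraries were below control (log2 -0.50 ± 0.14, SE, adjusted p = 0.0816, edgeR). DESeq2 called it there (-0.52, adjusted p = 0.0133) and for HS against tunicamycin at 45 min (1.11, adjusted p = 0.0295). With the GC correction edgeR called it lower at 135 min of HS (-0.75, adjusted p = 0.0269) and at 45 min (-0.53, adjusted p = 0.0278) and 405 min of tunicamycin (-0.45, adjusted p = 0.0311). Without the tilted libraries its values were -0.91, -0.51 and -0.30 in these comparisons, in that order. At 45 min of HS its value of 0.55 passed without replicate 3 (0.83, adjusted p = 0.0095, edgeR) and was -0.13 without the tilted libraries (adjusted p = 0.718, edgeR). The gene overlaps Prelid1 on the other strand, and the sources used here do not say whether counting used strand.

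Mxi1 (chromosome 19, 53403903 to 53450300 in 16 files and from 53384996 in 2) encodes a further protein of the MXD kind, also called MXD2. It lay between 23.7 and 32.9 CPM in all 18 libraries, with group means from 26.2 to 29.0 CPM that all overlapped. Its log2 fold changes in the 10 comparisons lay between -0.07 and 0.15, with standard errors from 0.11 to 0.22. It overlaps Gm10197 on the other strand, with the same limit.

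Mnt (chromosome 11, 74644426 to 74659227), the MAX partner that growing and resting cells alike express, was the member most dependent on single libraries. In control it was at 273 CPM in replicate 1 and at 82.8 and 81.6 CPM in replicates 2 and 3. HS libraries held 204, 260.0 and 99.4 CPM at 45 min and 139.8, 242 and 147 CPM at 135 min. Tunicamycin libraries held 136, 132 and 178 CPM at 45 min, 323, 196 and 192 CPM at 135 min and 186, 236 and 220.2 CPM at 405 min. Without control replicate 1, every stressed library was above the remaining control libraries.

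In the reported fits Mnt passed in no comparison, and its log2 value at 405 min of tunicamycin was 0.57 ± 0.44 (SE, adjusted p = 0.318, edgeR). Without control replicate 1 it was 1.41 at 405 min (adjusted p = 1.05e-05, edgeR) and 0.86 for tunicamycin at 45 min (adjusted p = 0.0135, edgeR), both called. The reference transcript of Mnt is 59.5% GC, the 93.4th percentile of genes, while Max is at 50.1% and Mxi1 at 46.4%. The 7 libraries with a GC tilt above 0 include control replicate 1 (0.0624), so fits without them are not separate from those without that library. Leaving out all 7, Mnt was called at 45 min (0.74, adjusted p = 0.000619), 135 min (1.28, adjusted p = 4.1e-05) and 405 min of tunicamycin (1.38, adjusted p = 3.75e-07) against control, all by edgeR with the 6 groups in 1 fit. The value at 135 min of HS, where this leaves 1 library, was 0.81 (adjusted p = 0.00064, edgeR), and that for HS against tunicamycin at 135 min was -0.47 (adjusted p = 0.0253, edgeR). Mnt was then also called between 135 and 45 min of tunicamycin (0.54, adjusted p = 0.00794, edgeR). With the GC correction and all libraries, with or without the replicate block, Mnt was not called at any tunicamycin time against control. The GC correction gave -0.28 at 45 min of HS, and with it Mnt passed at 135 min for HS against tunicamycin (-0.64, adjusted p = 0.0321, edgeR). Without HS 45 min replicate 3 it passed for HS against tunicamycin at 45 min (0.65, adjusted p = 0.0149, edgeR). The part of GC tilt in the Mnt values was not otherwise tested.

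**Figure D3:**
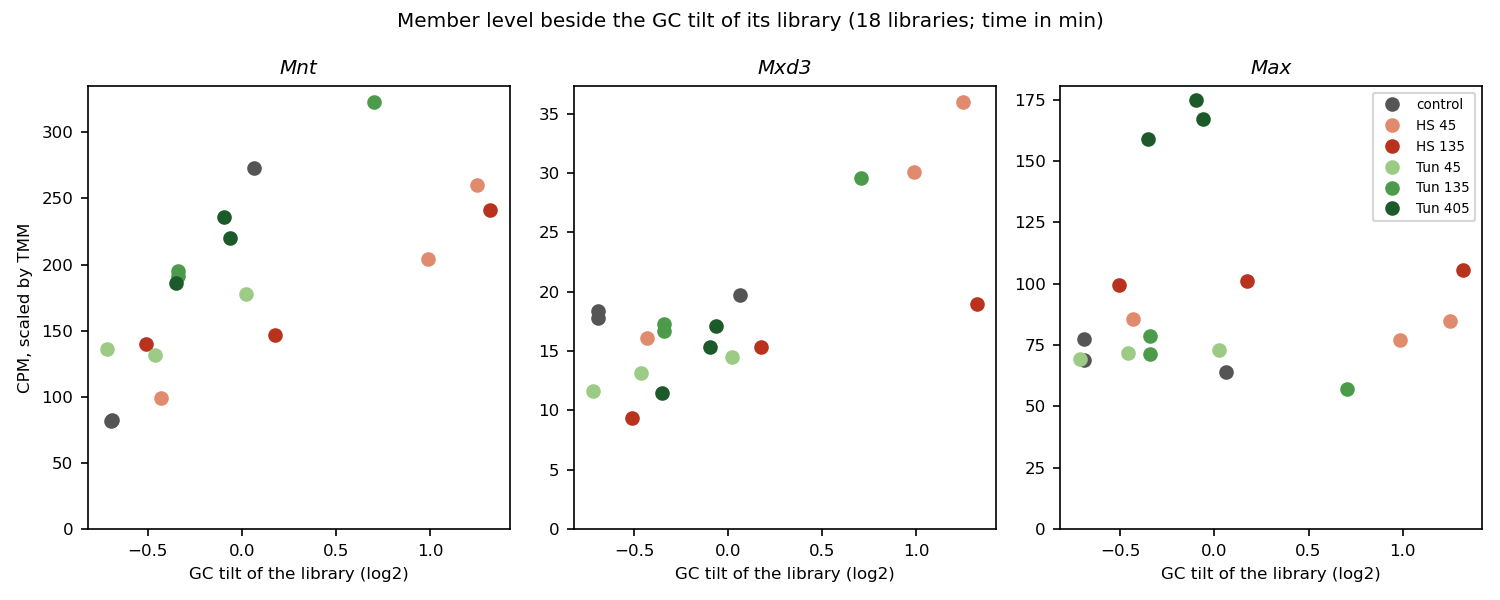
CPM of Mnt, Mxd3 and Max (vertical axes) against the GC tilt of each of the 18 libraries (horizontal axis, log2), coloured by group. The 2 control libraries of Mnt at 81.6 and 82.8 CPM have tilts near -0.69 and the one at 273 CPM has 0.0624, while Max separates by group at 405 min of tunicamycin (159.1 to 175 CPM) at tilts from -0.351 to -0.0633.

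Per length, Myc led the network in every group mean and more so under stress. In control cells the mean RPKM was 65.8 ± 8.6 for Myc (SD, n = 3), 30.4 ± 3.7 for Max, 26.7 ± 19.2 for Mnt, 12.3 ± 0.21 for Mxd3, 8.66 ± 2.9 for Mxd4, 4.65 ± 0.31 for Mxi1, 1.05 ± 0.074 for Mycn and 0.903 ± 0.12 for Mxd1. Mnt and Max differed by less than their spread, because of control replicate 1. At 405 min of tunicamycin Myc reached 295.7 ± 15.4 RPKM, Max 68.8 ± 1.6 RPKM and Mycn 0.0552 ± 0.024 RPKM. Myc made up 34.8, 49.6 and 48.0% of the RPKM summed over the 8 members in control. It made up 51.6 to 58.0% at 45 min and 58.8 to 62.3% at 135 min of HS, and 73.1 to 75.6%, 60.5 to 62.4% and 67.4 to 68.5% at the 3 tunicamycin times.

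The ratio of Myc to its 5 antagonists summed was 0.72, 1.85 and 1.63 in control and 5.19, 4.51 and 4.30 at 45 min of tunicamycin. The libraries labelled 135 min had 2.11, 2.41 and 2.36. At 405 min, with Max, Mxd1 and Mxd4 also higher, it was 4.23, 4.03 and 4.18. Under HS it was 1.88 to 1.97 at 45 min and 2.47 to 2.85 at 135 min. The ratio of Myc to Max was 2.13 to 2.19 in control, 6.87 to 8.16 at 45 min, 4.34 to 8.22 at 135 min and 4.10 to 4.52 at 405 min of tunicamycin. These ratios are of transcripts and carry no test.

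**Figure D4:**
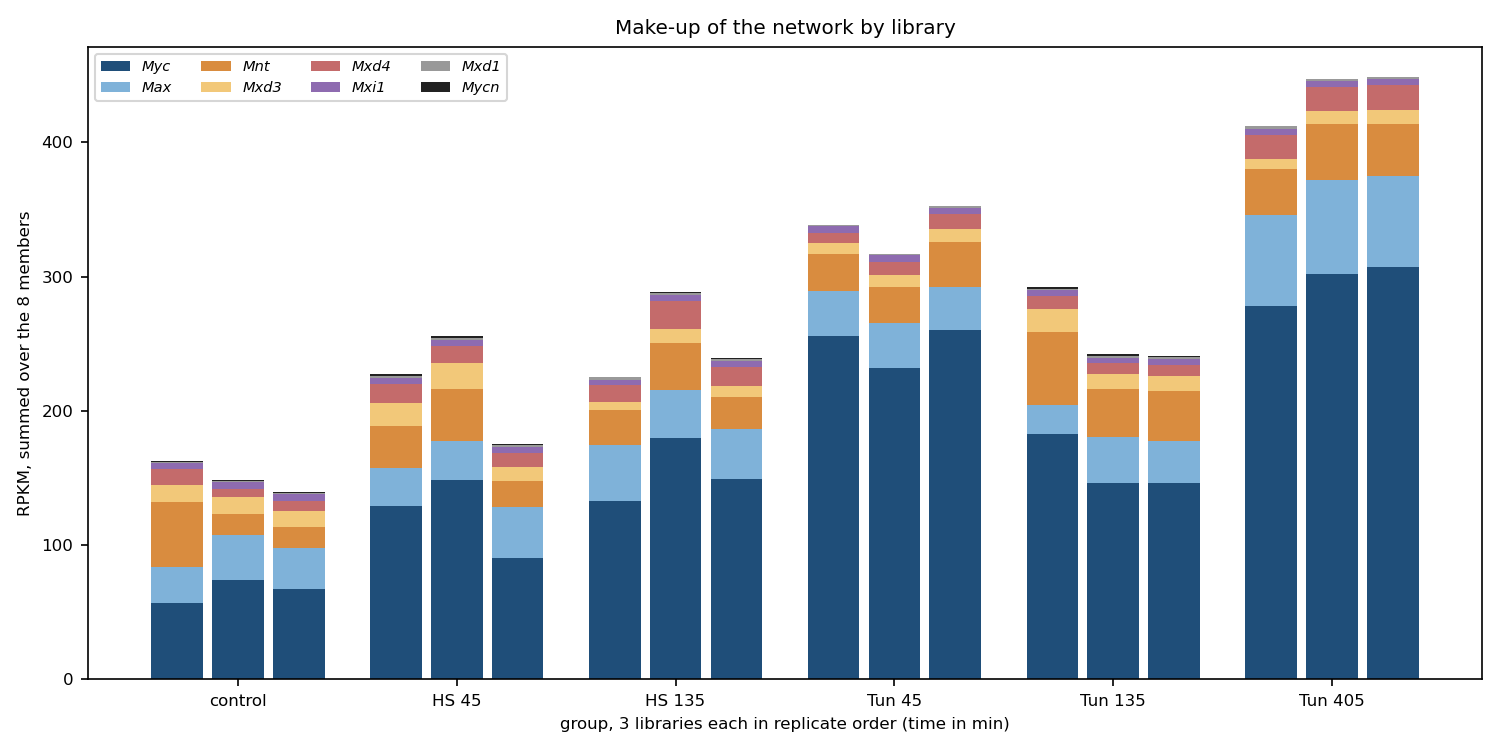
RPKM of the 8 members stacked for each library (vertical axis), 3 libraries per group in replicate order. The sum was 139.7 to 163 RPKM in control and 412 to 449 RPKM at 405 min of tunicamycin, with Myc the largest layer in every library.

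Of 5 further genes of the wider family, Mycl1 and Mga were called against control, both only at 405 min of tunicamycin. Mycl1, which encodes the third MYC protein, was at 0.452, 0.875 and 0.938 CPM in control and at 8.31, 6.93 and 7.61 CPM at 405 min of tunicamycin. It was 10.1-fold higher there (log2 3.34 ± 0.26, SE, adjusted p = 5.68e-05, edgeR), the opposite direction to Mycn, and stayed between 0.452 and 0.980 CPM in the other 15 libraries. Mga, a very large MAX partner, fell at 405 min, from 42.8 ± 6.9 to 25.1 ± 3.8 CPM (SD, n = 3; log2 -0.75 ± 0.17, SE, adjusted p = 0.00738, edgeR). It was also at 6.60, 8.62, 9.04 and 11.0 CPM in the 4 libraries with the highest GC tilt, and its sequence is 42.2% GC, the 9.79th percentile. Mlx and Mlxip, partners in the glucose-sensing branch, passed against control at no time, and Mlxipl was not tested.

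Genes that MYC is known to induce, 28 in number and all tested, were called in both directions. After 135 min of HS 1 was called higher and 2 lower, under tunicamycin 0 and 4 at the first time, and 7 and 4 at 405 min. Over all genes the shares called higher and lower were 4.75% and 2.64%, 4.01% and 2.17%, and 23.3% and 23.5% in these 3 comparisons, so that 7 of 28 is near the background. The test called 0 at 45 min of HS (5 at an unadjusted p under 0.05, all lower) and 0 at 135 min of tunicamycin (5, all lower). Over all genes, 19.5% and 18.6% had an unadjusted p under 0.05 there, in either direction. Their median log2 fold change was -0.28 at 45 min of tunicamycin and 0.22 at 405 min, against 0.00 and -0.01 over all tested genes. At 405 min the spermidine synthase gene Srm (1.31 ± 0.15, adjusted p = 0.000301) and the ribosome assembly genes Ppan (0.79 ± 0.13, adjusted p = 0.00187) and Nop56 (0.998 ± 0.20, adjusted p = 0.00399) rose, by edgeR. In the same libraries the transferrin receptor Tfrc (-2.48 ± 0.23, adjusted p = 0.000116), the lactate dehydrogenase Ldha (-1.24 ± 0.15, adjusted p = 0.00036) and the cap-binding factor Eif4e (-0.96 ± 0.19, adjusted p = 0.00392) fell, by edgeR. Ldha was also lower at 45 min of tunicamycin (-1.05 ± 0.15, adjusted p = 0.0117, edgeR), as were Odc1, the polyamine enzyme (-0.64 ± 0.11, adjusted p = 0.0225), and the nucleolar Fbl (-0.51 ± 0.12, adjusted p = 0.0468). At 135 min of HS the mitochondrial cochaperonin Hspe1 rose (1.73 ± 0.25, adjusted p = 0.0155, edgeR), while Ldha (-1.18 ± 0.21, adjusted p = 0.022) and the RNA polymerase I subunit Polr1b (-0.88 ± 0.21, adjusted p = 0.046) were lower.

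Of 10 genes that MYC is known to repress, 8 were tested. After 135 min of HS 3 of them rose and 1 fell, and the tunicamycin groups had 2 higher and 0 lower (45 min), 1 higher and 0 lower (135 min), and 3 higher and 2 lower (405 min). The shares of all genes called higher and lower were 4.75% and 2.64% at 135 min of HS, 4.01% and 2.17% at 45 min and 23.3% and 23.5% at 405 min of tunicamycin, and 0.134% were called in either direction at 135 min. At 45 min of HS 0 were called, where 3 had an unadjusted p under 0.05, all higher, against 19.5% of all genes in either direction. The growth arrest gene Gadd45a rose in 4 of the 5 comparisons, by 3.71 ± 0.16 on the log2 scale after 45 min of tunicamycin (adjusted p = 8.81e-05, edgeR) and by 4.84 ± 0.17 at 405 min (adjusted p = 2.45e-06, edgeR). Ndrg1, a stress-responsive gene, rose by 1.70 ± 0.13 and 2.98 ± 0.14 at the same times (adjusted p = 0.00122 and 8.46e-06, edgeR), and the CDK inhibitor gene Cdkn1b by 1.32 ± 0.20 at 405 min (adjusted p = 0.00117, edgeR). Thbs1, for the matrix protein thrombospondin, fell at 405 min (-3.41 ± 0.25, adjusted p = 3.94e-05, edgeR), as did the growth factor receptor gene Pdgfrb (-2.14 ± 0.22, adjusted p = 0.000174, edgeR). Pdgfrb is also 1 of the 8 fibroblast markers, whose sum was lowest at 405 min, from 21000 to 22900 CPM against 29500 to 38800 CPM in control, and its part in these results was not tested.

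Cofactor genes were called one by one rather than as whole lists. Over all genes, 7.39% were called at 135 min of HS, 6.17% at 45 min and 46.8% at 405 min of tunicamycin. Among 8 coactivator genes, Wdr5, which anchors MYC to chromatin, was lower at 135 min of HS (-1.16 ± 0.22, adjusted p = 0.0256, edgeR). At 405 min of tunicamycin the helicase gene Ruvbl2 rose (0.61 ± 0.13, adjusted p = 0.00525, edgeR) and the scaffold gene Trrap fell (-0.90 ± 0.17, adjusted p = 0.00377, edgeR). Among 7 corepressor genes, Sin3a, the scaffold on which the MXD proteins act, was lower at 135 min of HS (-1.02 ± 0.22, adjusted p = 0.0355, edgeR) and likewise at 405 min of tunicamycin (-0.71 ± 0.14, adjusted p = 0.004, edgeR), and Ncor1 fell at 405 min (-0.42 ± 0.13, adjusted p = 0.0278, edgeR). Of 11 genes for MYC protein turnover, 4 were higher and 4 lower at 405 min, where 46.8% of all genes were called (23.3% higher and 23.5% lower). The deubiquitinase gene Usp36 (0.94 ± 0.13, adjusted p = 0.000716) rose, whereas the deubiquitinase gene Usp28 (-1.47 ± 0.18, adjusted p = 0.000472) and the ubiquitin ligase gene Fbxw7 (-0.87 ± 0.19, adjusted p = 0.00697) fell, by edgeR. Only 2 targets of MondoA, the Mlxip product, were listed here, Txnip and Arrdc4. Of these, Txnip rose at 135 min of HS (1.94 ± 0.25, adjusted p = 0.0127, edgeR). At 45 min of tunicamycin Txnip (2.52 ± 0.20, adjusted p = 0.00122) and Arrdc4 (1.04 ± 0.18, adjusted p = 0.0204) rose, by edgeR. Both Arrdc4 (2.51 ± 0.15, adjusted p = 1.84e-05) and Txnip (1.54 ± 0.18, adjusted p = 0.00034) were also higher at 405 min of tunicamycin, by edgeR.

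Likeness of pattern was taken as Pearson's r over the 6 group means of log2 CPM, among 4050 or 4051 genes with a mean of at least 10 CPM and a range of at least 1 on the log2 scale. The genes most like Myc were Kri1 (r = 0.974), Nop14 (0.974) and Gdnf (0.972). Those most like Max were Tmed2 (0.998), Eif2ak3 (0.998) and Zbtb8a (0.995), and those most like Mnt were Ier2 (0.928), Msi2 (0.922) and Mapre3 (0.918). For Mxi1, whose own means hardly differed, they were 2510006D16Rik (0.988), Pkdcc (0.98) and Thap11 (0.977). The points share libraries, depth and GC tilt within each group, and the values describe these 6 means only.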

How the data were processed

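The authors sequenced poly(A) RNA of 18 libraries on an Illumina sequencer, and aligned and counted the reads on RefSeq genes of mm 9 with the DNAnexus platform. The aligner, the counter, their versions and the use of strand are not given in the sources used here. The deposited files hold per gene an estimated count (read_count, 4 significant digits; 17.7 to 23.2% of low values not whole) and RPKM as the authors computed it. The authors also deposited a score, the Z-score of RPKM within the library, and an RMS-normalized RPKM signal, neither used here. Totals ran from 33415592 to 66478268 reads, so the floor of 3 counts was 0.0451 to 0.0898 CPM; it covers counting error only.

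Counts were rounded, scaled by TMM and tested 3 against 3 with edgeR 4.0.16 (glmQLFit, glmQLFTest; R 4.3.3) in 10 comparisons, over 12731 genes with at least 1 read in every library. Calls had a Benjamini-Hochberg adjusted p under 0.05. The interaction was fitted on the 4 groups at 45 and 135 min. Replicates of every group differed by more than sampling noise. The study also used edgeR, after removing genes with a count of 0. Alternatives were no filter, DESeq2 1.42.0 size factors and Wald test, total counts, all 6 groups in 1 fit, a GC offset (lowess span 0.3; GC known for 97.7% of tested genes), the replicate number as a block, and leaving out each library.

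Groups share replicate numbers in the labels. Same-numbered libraries deviated together in every pair in 1 of 10 comparisons, tunicamycin 135 min against control (correlations 0.284 to 0.335), where the block changed no call of a member. Replicates 2 and 3 also correlated there across numbers (0.261 and 0.223), while different-numbered pairs with a replicate 1 were negative. These values do not show that the numbers pair libraries there, and elsewhere they were not taken to. The members and gene lists were chosen with earlier results of these data known. All 8 members and the other MAX-family partners were named, and of the other lists at most 3 genes past the threshold per comparison and direction. Promoters are from RefSeq.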

Additional observations from a re-analysis of the deposited data

Results flagged for a closer look

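The change of Mycn from 45 to 135 min differed between HS and tunicamycin by -3.54 ± 0.48 on the log2 scale (HS minus tunicamycin, SE; adjusted p = 0.00483, edgeR), by a test of that difference. Under HS the level went from 5.43 ± 2.2 to 2.12 ± 0.36 CPM, and under tunicamycin from 0.827 ± 0.20 to 3.66 ± 0.93 CPM (SD, n = 3 each). All 3 libraries of HS 135 min lay below those of HS 45 min, and all 3 of tunicamycin 135 min above those of tunicamycin 45 min. By itself the HS change did not pass (-1.405 ± 0.381, adjusted p = 0.259, edgeR). It passed with all groups in 1 fit (-1.35, adjusted p = 0.0206, edgeR) and by DESeq2 (-1.39, adjusted p = 0.0305), and was -0.85 without the libraries of positive GC tilt. The tunicamycin change by itself passed (2.15 ± 0.28, adjusted p = 0.046, edgeR), but not in 5 of the 6 fits without 1 library. Hspa5 was lower in all 3 tunicamycin libraries labelled 135 min than in those labelled 45 min. The difference stayed past the threshold in every alternative tried, from -3.80 to -2.91 (edgeR), the last without the libraries of positive GC tilt, where each HS time has 1 library and the other groups supply the spread; the test and its alternatives were added after seeing the data.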

How the results depend on the processing

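All calls of members at 405 min of tunicamycin, against control and against 135 min, and that of Myc at 45 min of tunicamycin held under every alternative. Over the 14 calls, 191 of 210 alternative values stayed past the threshold, 19 did not and 0 changed sign.

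The number of members called moved as follows. For HS 45 min against control (0 called) it was 1 with DESeq2, 2 with all groups in 1 fit and 1 without the libraries of positive GC tilt (chosen after seeing the data), and 0 to 5 when 1 library was left out, with 5 without HS 45 min replicate 3. For HS 135 min against control (2) it was 4 with all groups in 1 fit, 6 with the GC offset, 0 with the replicate block, 1 with both, 7 without the tilted libraries (which leaves 1 library in each HS group, assumed to vary like the others) and 0 to 2 when 1 library was left out. For tunicamycin 45 min against control (2) it was 1 with the replicate block, 4 without the tilted libraries and 1 to 4 when 1 library was left out. For tunicamycin 135 min against control (0) it was 1 with no filter, DESeq2, all groups in 1 fit or the GC offset, 3 without the tilted libraries and 0 to 1 when 1 library was left out. For tunicamycin 405 min against control it was 5 to 6 and against 135 min 4 to 5 when 1 library was left out. For HS 135 against 45 min (0) it was 1 with DESeq2, with all groups in 1 fit and without the tilted libraries, and 0 when 1 library was left out. For tunicamycin 135 against 45 min (1) it was 0 with the replicate block, 2 with the GC offset, 0 with both, 3 without the tilted libraries and 0 to 2 when 1 library was left out. For HS against tunicamycin at 45 min (0) it was 1 with total counts, 2 with DESeq2, 2 with all groups in 1 fit, 1 with the GC offset, 2 without the tilted libraries and 0 to 6 when 1 library was left out, with 6 without HS 45 min replicate 3. At 135 min (0) it was 2 with DESeq2, 3 with all groups in 1 fit, 4 with the GC offset, 4 without the tilted libraries and 0 when 1 library was left out. Beyond the fits that leave out 1 library, smaller gains are not in this list. At HS 135 min against control DESeq2 also called Mxd4. At tunicamycin 45 min against control DESeq2 and the GC offset each also called Mxd3. At 405 min against control the GC offset, alone or with the block, also called Mxd3. Without the tilted libraries Mnt was also called at 405 min against control, and Mxd1 at 405 against 135 min. The cause of these moves was not tested. Same-numbered libraries correlated between -0.826 and 0.791 in their deviations, so the block may share only a number. At tunicamycin 135 min against control, where all same-numbered pairs correlated, replicates 2 and 3 did so across numbers too (0.261 and 0.223).

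Scaling by total counts moved the median of all genes by more than 0.1 in 6 of 10 comparisons, all 4 of HS with control or tunicamycin and 2 of tunicamycin 45 min (from 0.00 to 0.10 against control, and from -0.02 to -0.13 for 135 against 45 min), for example from -0.03 to -0.19 at HS 45 min against control and from -0.05 to -0.33 at HS against tunicamycin 45 min. Values that changed sign were all uncalled in the reported fit. With total counts, Mxi1 was -0.08 and -0.10 at HS 45 and 135 min, 0.06 and -0.06 at tunicamycin 45 and 405 min against control, -0.10 and -0.03 at tunicamycin 135 against 45 and 405 against 135 min, and -0.15 and -0.07 at HS against tunicamycin 45 and 135 min. Max was then 0.00 at tunicamycin 135 min against control and -0.07 at HS against tunicamycin 45 min, and Myc -0.08 at HS against tunicamycin 135 min. With the GC offset, Mnt was -0.28 and -0.11 at HS 45 and 135 min against control, 0.12 at HS 135 against 45 min and -0.36 at HS against tunicamycin 45 min. At tunicamycin 135 min against control Max was 0.00, Mxd3 -0.05, Mxd4 -0.11 and Mxi1 0.13, and Mxi1 was -0.03 at 405 against 135 min. With the GC offset and the replicate block, Mnt was -0.14, 0.12 and -0.37 at HS 45 min against control, HS 135 against 45 min and HS against tunicamycin 45 min, and at tunicamycin 135 min against control Mxd3 was -0.05, Mxd4 -0.08 and Mxi1 0.11. Mxd4 at tunicamycin 135 against 45 min was 0.01 with DESeq2 size factors, with its Wald test and with the replicate block. Without the tilted libraries, Mxd3 was -0.13 and -0.05 at HS 45 min and tunicamycin 135 min, Mxi1 -0.18 and -0.09 at HS 45 and 135 min, and Max -0.01 and 0.08 at tunicamycin 45 and 135 min, all against control. Then Mxi1 was 0.09 and Mnt 0.50 at HS 135 against 45 min, Max 0.10 and Mxd4 0.06 at tunicamycin 135 against 45 min, Mnt 0.10 at tunicamycin 405 against 135 min, Mxi1 -0.06 and Mnt -0.43 at HS against tunicamycin 45 min, and Myc -0.12 at HS against tunicamycin 135 min.

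When 1 library was left out, values that changed sign ranged for Mxi1 from -0.01 to 0.16 at HS 135 min, -0.12 to 0.00 at tunicamycin 45 min and -0.10 to 0.03 at 135 min against control, -0.20 to 0.01 at HS 135 against 45 min, -0.06 to 0.10 at tunicamycin 135 against 45 min and -0.04 to 0.13 at 405 against 135 min. For Mnt they ranged from -0.02 to 1.09 at HS 135 min and -0.25 to 0.86 at tunicamycin 45 min against control, -0.46 to 0.17 at HS 135 against 45 min and -0.29 to 0.13 at tunicamycin 405 against 135 min. For Max they ranged from -0.03 to 0.11 and -0.12 to 0.13 at tunicamycin 45 and 135 min against control and -0.15 to 0.10 at 135 against 45 min. For Mxd4 they ranged from -0.15 to 0.37 and -0.16 to 0.36 at tunicamycin 45 and 135 min against control, -0.01 to 0.52 at HS 135 against 45 min and -0.16 to 0.15 at tunicamycin 135 against 45 min. Mxd3 ranged from -0.10 to 0.33 at tunicamycin 135 min against control and Myc from -0.09 to 0.26 at HS against tunicamycin 135 min.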
